A study of Mus musculus with 4 samples.

Results

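The CC chemokines Ccl2, Ccl5, Ccl7, Ccl8, Ccl11 and Ccl20 were described in mouse embryonic fibroblasts, as all probe sets of the array annotated to these 6 gene symbols among 18193 genes with a probe set of their own. Each of the 6 genes had 1 probe set, so 6 of 45037 probe sets were used. The fibroblasts lacked Rela, the gene of the NF-kB subunit p65 (p65-/-), or were wild type for it (p65+/+). All of them, controls included, carried HRAS with the G12V change, brought in by a retrovirus with hygromycin resistance. Total RNA came from 4 samples, 1 array each. They were p65-/- tumour cells, p65-/- pre-injection cells, p65+/+ tumour cells and p65+/+ pre-injection cells. Tumour cells were recovered from tumours in SCID mice, which lack mature B and T cells but keep innate immune cells, and were returned to culture under hygromycin for 2 weeks. The labels do not give the number of mice, tumours or embryos behind an array, and genotype cannot be told apart from the line of cells.

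CC chemokines are small secreted proteins named for a pair of adjacent cysteines, and they attract leukocytes that carry matching receptors. Fibroblasts are known to secrete several of them when inflammatory signals such as TNF or interleukin-1 activate NF-kB. Ccl2 and Ccl7 attract monocytes through the receptor CCR2. Ccl5 attracts T cells, natural killer cells and monocytes. Ccl11, or eotaxin, attracts eosinophils through CCR3, mouse Ccl8 acts on CCR8, and Ccl20 attracts CCR6-bearing lymphocytes and dendritic cells.

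Of the 6 genes, Ccl8 and Ccl20 had an entry in the RefSeq promoter table of build GRCm38.p6, and both stretches of 250 bases upstream of the start are shown because the genotype compared is the loss of a factor that binds promoters. Capitals mark matches to a loose form of the kB motif (GGG and CC with any 5 bases between them) and to TATAAA, searched on both strands.
Ccl20, chr1:83116516-83116765, + strand: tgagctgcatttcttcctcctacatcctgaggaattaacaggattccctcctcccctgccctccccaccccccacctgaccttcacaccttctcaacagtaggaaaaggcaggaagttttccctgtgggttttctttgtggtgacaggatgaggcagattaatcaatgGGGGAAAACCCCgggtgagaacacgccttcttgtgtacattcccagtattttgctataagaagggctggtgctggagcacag
Ccl8, chr11:82114935-82115184, + strand: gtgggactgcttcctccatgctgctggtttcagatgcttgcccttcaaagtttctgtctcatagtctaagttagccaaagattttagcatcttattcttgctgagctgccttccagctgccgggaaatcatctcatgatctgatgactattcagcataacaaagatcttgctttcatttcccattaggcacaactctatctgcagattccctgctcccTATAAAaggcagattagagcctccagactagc
The capitals of Ccl20 lie 71 to 82 bases before the start and hold overlapping matches to the loose form, which 45.8% of 32851 promoter entries also hold within the same 250 bases. One of them, on the reverse strand, also fits the stricter kB consensus, which is a special case of the loose form and is held by 7.25% of entries. In the Ccl8 stretch TATAAA stands 27 to 32 bases before the start, a motif held by 12.4% of entries, and neither kB form was found in this window.

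Values are deposited signal intensities, 1 per probe set and array. Each group had a single array, so no comparison was checked against replicates or tested, and "higher" and "lower" compare 2 arrays only. The number of arrays limits the precision. A difference was counted at 2-fold or more. The floor of an array was its median signal, between 87.8 and 93.4. A signal under its floor was replaced by the floor, and folds with such an array are written "at least". Rela, the check of the genotype labels, had 209 and 214 in p65-/- tumour and pre-injection cells, against 1457 and 1479 in p65+/+ tumour and pre-injection cells. Of 10 fibroblast markers, 9 were above the floor on all 4 arrays, and Fap was under it on all 4. The p65-/- pre-injection array stood apart from the others, with 11153 probe sets at a signal of 200 or more, against 13015 to 13419 on the other arrays. Its 75th percentile was 198, against 242 to 256. Genotype results before injection are therefore also given with p65-/- tumour cells standing in for it, which mixes genotype with tumour state. No such second value exists for the tumour change of p65-/- cells. Comparisons that share an array are not independent of each other.

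In p65-/- cells, Ccl2 and Ccl7 were lower both before injection and after tumour growth, Ccl5 was higher before injection and lower after tumour growth, and the signals of Ccl8 and Ccl20 stayed within 2-fold. Ccl11 lay under the floor on all 4 arrays, so no fold is given for it. Before injection, 2 of the 5 genes compared were lower in p65-/- cells, where 17.8% of all 12584 genes compared were lower, and 1 was higher, where 2.06% of all genes were. In tumour cells 3 of 5 were lower and 0 were higher, against 5.47% and 2.65% of 11977 genes. The median of the 5 genes was 0.13 before injection and -1.27 in tumour cells on the log2 scale, beside -0.02 and 0.01 over all genes compared.

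**Figure D1:**
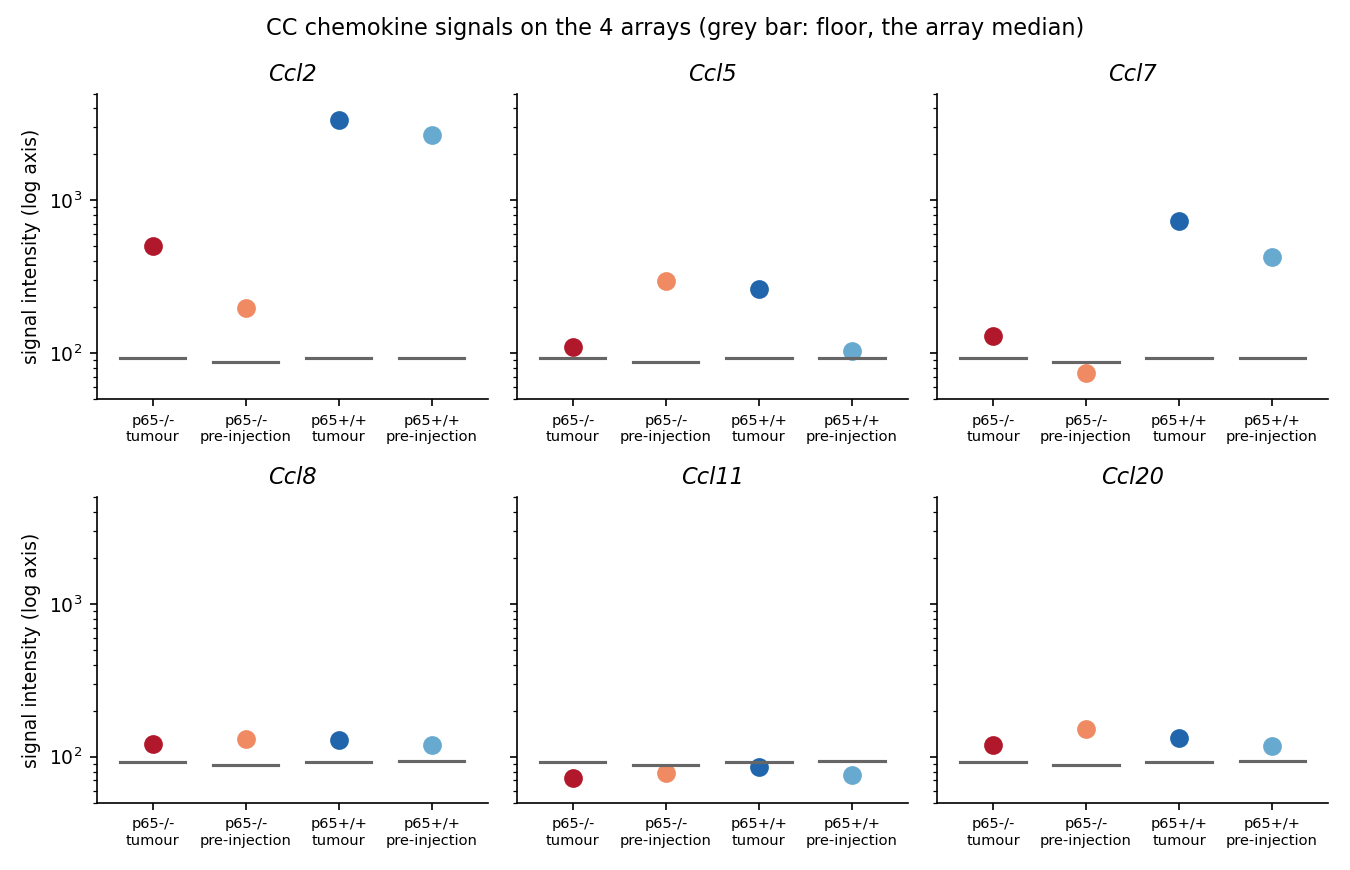
Signal intensity (log axis) of the 6 CC chemokine genes on the 4 arrays, 1 point per array, with a grey bar at the floor of each array (its median signal). Ccl2 and Ccl7 are lower on both p65-/- arrays, Ccl5 is near the floor in p65-/- tumour and p65+/+ pre-injection cells, and Ccl11 lies under every floor.

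The largest signal difference among the 6 genes was that of Ccl2, the monocyte chemokine (chromosome 11). Its signal was 506 in p65-/- tumour cells and 198 in p65-/- pre-injection cells, against 3339 in p65+/+ tumour cells and 2671 in p65+/+ pre-injection cells. Both p65-/- arrays were thus below both p65+/+ arrays, and all 4 values were above the floor. Before injection Ccl2 was 13.5-fold lower in p65-/- cells, a log2 difference of -3.75 that ranked 19 from the lowest of 12584 genes. With p65-/- tumour cells standing in for p65-/- pre-injection cells, the log2 difference was -2.40. In tumour cells Ccl2 was 6.60-fold lower in p65-/- cells (log2 difference -2.72), rank 49 from the lowest of 11977 genes. For scale, log2 differences of probe sets of the same gene had a standard deviation of 0.48 before injection and 0.32 in tumour cells, over genes with several probe sets. That spread lies between probe sets on the same arrays and does not measure variation between cultures, mice or arrays.

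Ccl7 (chromosome 11), also a ligand of CCR2, had the same order of arrays as Ccl2. It had 130 in p65-/- tumour cells and 73.8 in p65-/- pre-injection cells, against 734 in p65+/+ tumour cells and 426 in p65+/+ pre-injection cells. The p65-/- pre-injection value was the only one under its floor, and the groups did not overlap. Ccl7 was at least 4.85-fold lower in p65-/- cells before injection (log2 difference -2.28) and 5.65-fold lower in tumour cells (-2.50), where it ranked 64 from the lowest. With p65-/- tumour cells standing in for p65-/- pre-injection cells, the log2 difference was -1.71. The closest pair of a p65-/- and a p65+/+ array, which was p65-/- tumour and p65+/+ pre-injection cells for both genes, differed 5.28-fold for Ccl2 and 3.28-fold for Ccl7. Of 12810 genes above the floor on at least 1 array, 2.01% had both p65-/- arrays 2-fold or more below both p65+/+ arrays, 0.383% had them 2-fold or more above, and 27.8% had them below by any amount. Neighbours in the order that lay less than 2-fold apart were the p65+/+ arrays for both genes. For Ccl7 the p65-/- arrays lay at least 1.48-fold apart, a bound that leaves 2-fold possible.

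Ccl5 (chromosome 11), a chemokine for T cells and natural killer cells, was high in p65-/- pre-injection and p65+/+ tumour cells and near the floor in the other samples. Its signal was 109 in p65-/- tumour cells and 297 in p65-/- pre-injection cells, against 264 in p65+/+ tumour cells and 104 in p65+/+ pre-injection cells. All 4 values were above the floor, the lower ones by a factor of 1.18 in p65-/- tumour cells and 1.12 in p65+/+ pre-injection cells, and the genotypes overlapped. The higher values differed 1.12-fold from each other and the lower ones 1.05-fold. Ccl5 was thus 2.85-fold higher in p65-/- cells before injection (log2 difference 1.51, rank 76 from the highest of 12584). It was 2.42-fold lower in p65-/- cells in tumour cells (-1.27, rank 389 from the lowest of 11977). With p65-/- tumour cells standing in for p65-/- pre-injection cells, the difference was 0.07, so the higher value before injection rests on the p65-/- pre-injection array. With the floor at the 70th percentile, where the lower signals count as under the floor, neither difference reached 2-fold.

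**Figure D2:**
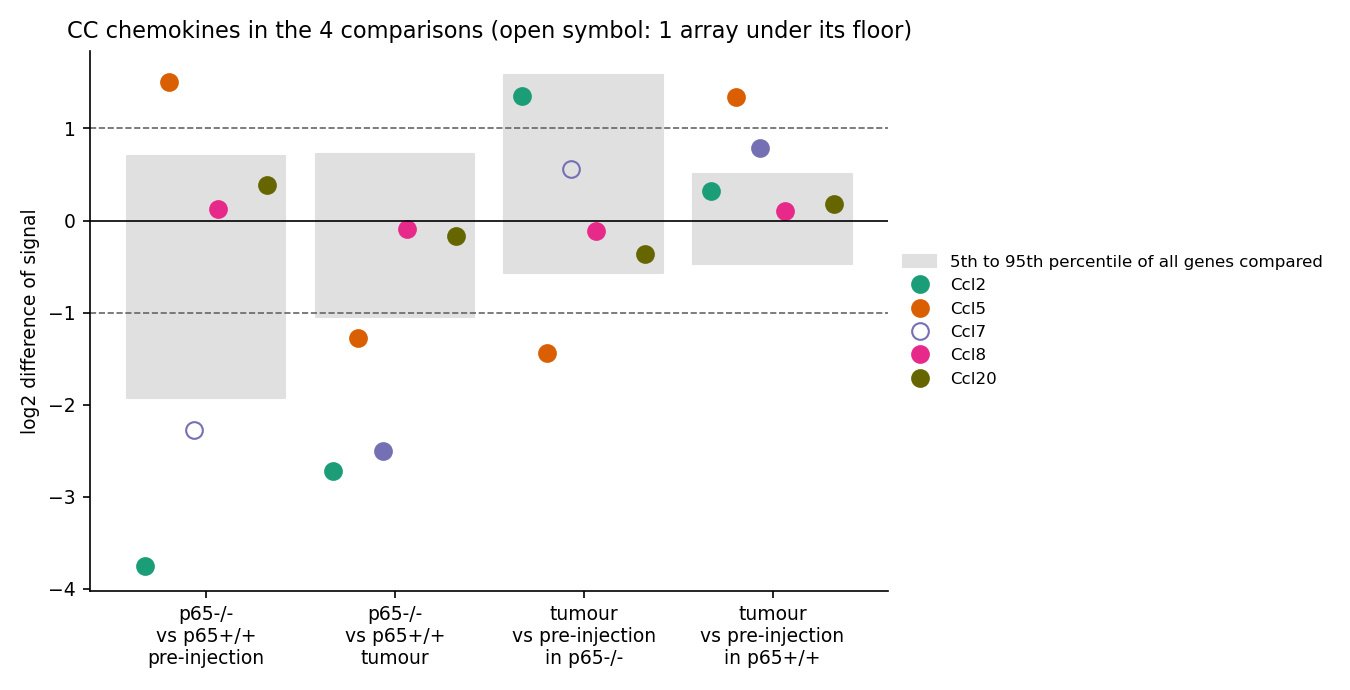
Log2 difference of signal (vertical axis) of 5 CC chemokine genes in the 4 comparisons, with dashed lines at 2-fold and grey boxes from the 5th to the 95th percentile of all genes compared. Open symbols have 1 array under its floor; Ccl2 and Ccl7 lie below the grey box in both genotype comparisons, and Ccl5 lies outside it in all 4 comparisons.

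Tumour cells were set against pre-injection cells in each genotype. Growth in the mouse, recovery from the tumour and the return to culture under hygromycin cannot be told apart in this comparison. In p65-/- cells Ccl2 was 2.55-fold higher in tumour cells than before injection (log2 difference 1.35), as were 13.7% of 12443 genes at 2-fold or more. Ccl5 was 2.71-fold lower in p65-/- tumour cells (-1.44), where 1.48% of genes were lower, and it ranked 73 from the lowest. Ccl7 was at least 1.48-fold higher (0.56). In p65+/+ cells Ccl5 was 2.54-fold higher in tumour cells (1.34), where 0.958% of 11695 genes were higher and 0.761% lower, and it ranked 43 from the highest. Ccl7 was 1.72-fold higher (0.78) and Ccl2 1.25-fold higher (0.32), both under 2-fold. The median of the 5 genes was -0.12 in p65-/- cells and 0.32 in p65+/+ cells, beside 0.03 and -0.01 over all genes compared.

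The tumour changes of the genotypes, which share no array, were then compared. For Ccl5 the change was -1.44 in p65-/- cells and 1.34 in p65+/+ cells, a difference of -2.78 on the log2 scale, rank 17 from the lowest of 11328 genes. With the floor at the 70th percentile the changes were -0.64 and 0.42, neither past 2-fold, and the difference was -1.06. The authors' deposited table holds quotients only, and the difference they imply, with log2 levels taken from the signals, was -4.31. Changes of 2-fold or more in opposite directions were seen for 0.397% of these genes. For Ccl2 the difference was 1.03, just past 2-fold, where 15.8% of genes were past it in the same direction, and it was under 1 after quantile normalization, after scaling to the 75th percentile and after centring on the median. Ccl8 differed by -0.22 and Ccl20 by -0.55, both under 2-fold. For Ccl7 the difference was at least -0.22, a lower bound, since its p65-/- pre-injection signal was under the floor. Without the floor the Ccl7 changes were 0.81 in p65-/- cells and 0.78 in p65+/+ cells, so the direction of its difference is not settled. At 2-fold or more, 2.63% of genes had a lower change in p65-/- cells. None of these differences was tested. Each of them uses the p65-/- pre-injection array, which stood apart from the others, and no second value without that array exists.

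**Figure D3:**
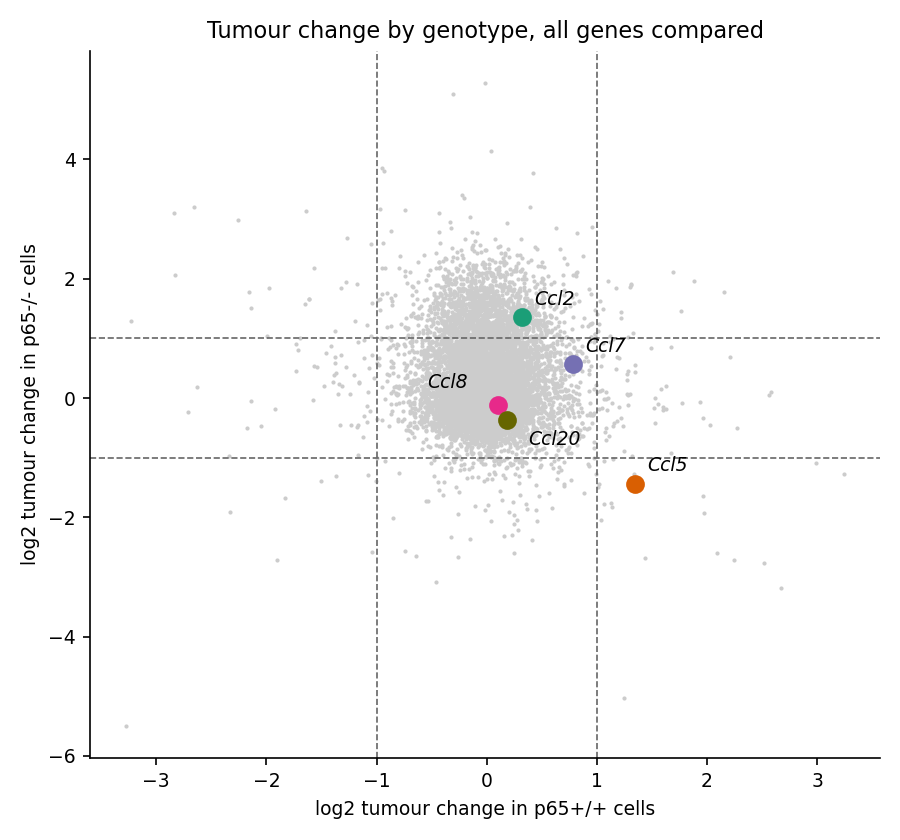
Log2 tumour change (tumour over pre-injection) in p65-/- cells (vertical axis) against that in p65+/+ cells (horizontal axis) for all 11328 genes compared (grey), with 5 CC chemokine genes in colour and dashed lines at 2-fold. Ccl5 lies in the lower right corner, at -1.44 in p65-/- cells and 1.34 in p65+/+ cells.

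Ccl8 (chromosome 11) and Ccl20 (chromosome 1) showed nearly level signals. Ccl8 had 121 in p65-/- tumour cells and 131 in p65-/- pre-injection cells, against 129 in p65+/+ tumour cells and 120.2 in p65+/+ pre-injection cells, so its highest array was 1.09-fold above its lowest. Ccl20 had 119 in p65-/- tumour cells and 153 in p65-/- pre-injection cells, against 133 in p65+/+ tumour cells and 117 in p65+/+ pre-injection cells, a span of 1.30-fold with p65-/- pre-injection cells highest. In both genes the genotypes overlapped and all arrays were between 1.26 and 1.74 times their floors. Of 10082 genes above the floor on all 4 arrays, 72.9% spanned less than 2-fold. Ccl11 (chromosome 11) had 72.7 in p65-/- tumour cells and 77.8 in p65-/- pre-injection cells, against 85.2 in p65+/+ tumour cells and 76.3 in p65+/+ pre-injection cells, and these values, all under the floor, give no order.

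The authors' deposited table of ratios gave another picture for Ccl20. That table holds, for each pair of arrays, a signed quotient of log2 levels, positive where the group on top was higher. In all 42297 probe sets with 4 nonzero entries, the quotients multiplied to the same value along both ways from p65+/+ pre-injection to p65-/- tumour cells within 2%. The entries of a gene therefore give an order of the 4 arrays without its level. In the authors' deposited table Ccl20 stood at -1.36 for p65-/- against p65+/+ cells before injection and at -1.39 in tumour cells. The quotients from the signals of the same probe set were 1.06 and -1.02. The order of Ccl20 in the authors' deposited table, from high to low, was p65+/+ tumour, p65+/+ pre-injection, p65-/- tumour and p65-/- pre-injection. Ccl2 and Ccl7 had that order too, both there and in the signals, and 8.48% of 16936 genes had it in the table, with both p65-/- arrays lowest in 23.6%. Ccl2, at -1.54 and -1.32, and Ccl7, at -1.52 and -1.43, were lower in p65-/- cells in the authors' deposited table as well.

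In the authors' deposited table Ccl5 also kept the order of its signals, with 1.36 and -1.28 for the genotype comparisons before injection and in tumour cells. Its tumour change there was -1.34 in p65-/- cells and 1.30 in p65+/+ cells. For Ccl11, under the floor in the signals, 3 of its 4 entries in the authors' deposited table had the opposite sign to the signals. Among probe sets with signals from 100 to 200 on both arrays, the range of Ccl8 and Ccl20, the sign was the same in both tables for 69.2% to 72.6% of them, depending on the comparison. At 500 or more on both arrays it was the same for 92.0% to 94.5%.

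**Figure D4:**
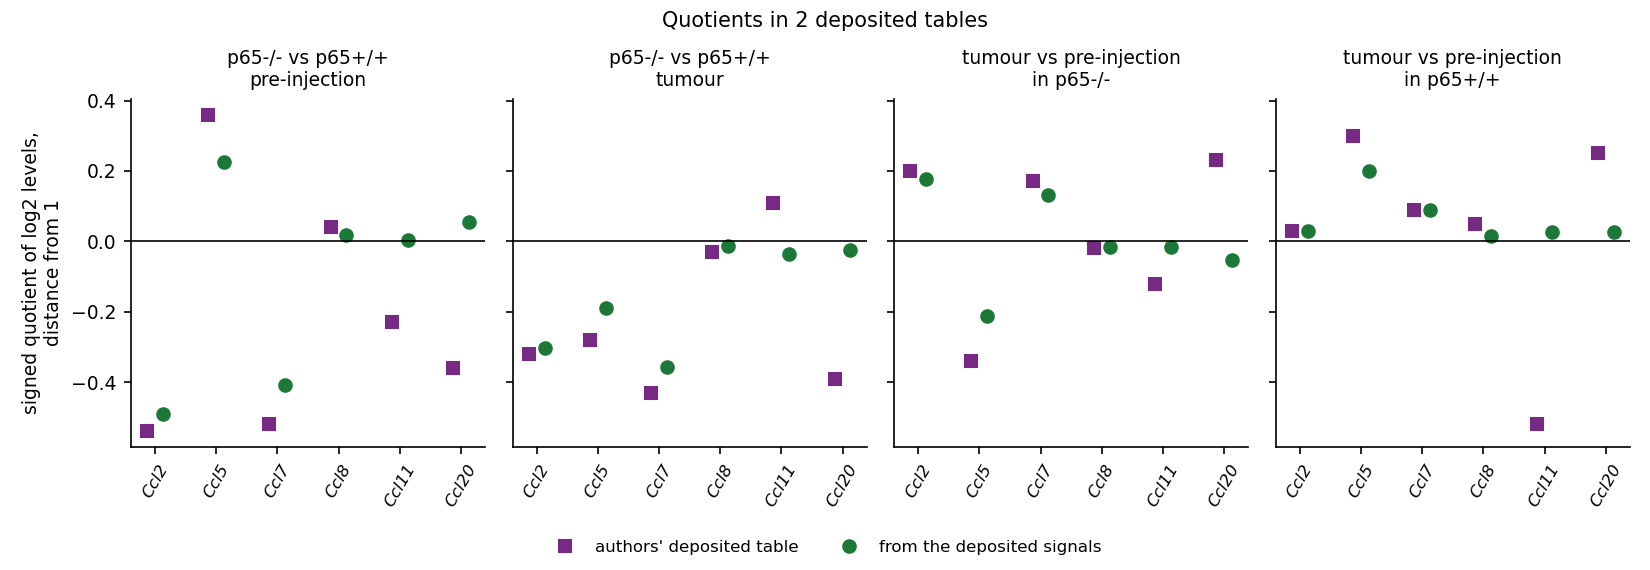
Signed quotient of log2 levels, as its distance from 1 (vertical axis, 0 means equal), for the 6 genes in the 4 comparisons, from the authors' deposited table (squares) and from the deposited signals (circles). The tables lie close together for Ccl2 and Ccl8, share their direction for Ccl5 and Ccl7, and differ most for Ccl11 and Ccl20.

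Ccl2, Ccl7, Ccl11, Ccl12, Ccl8 and Ccl1 follow each other in this order on mouse chromosome 11, with no other protein-coding gene between them in the RefSeq gene table. In that cluster, Ccl2 and Ccl7 at one end were lower in p65-/- cells, Ccl8 was within 2-fold, and the other 3 genes were under the floor on all 4 arrays and could not be compared. Ccl12, a further CCR2 ligand of the mouse, had 40.8 and 44.4 in p65-/- tumour and pre-injection cells, against 38.5 and 37.4 in p65+/+ tumour and pre-injection cells, under the floor throughout. Ccl5 lies in another cluster of chromosome 11, followed by Ccl9, Ccl6, Ccl3 and Ccl4. Of these 4 neighbours, Ccl6 was under the floor on all 4 arrays, and none of the others reached 2-fold once signals under the floor were replaced by it. Ccl9 had 124 and 79.8 in p65-/- tumour and pre-injection cells, against 59.4 and 96.0 in p65+/+ tumour and pre-injection cells, so in tumour cells it was at least 1.34-fold higher in p65-/- cells, a bound that leaves 2-fold possible. The other, weaker probe set of Ccl9 was under the floor on all 4 arrays. The only neighbours above the floor on all 4 arrays were Ccl3 and Ccl4. Ccl4, a chemokine for monocytes and T cells, had 571 and 707 in p65-/- tumour and pre-injection cells, against 378 and 392 in p65+/+ tumour and pre-injection cells. Ccl4 thus had log2 differences of 0.60 in tumour cells and 0.85 before injection, both positive, while those of Ccl5 had opposite signs.

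**Figure D5:**
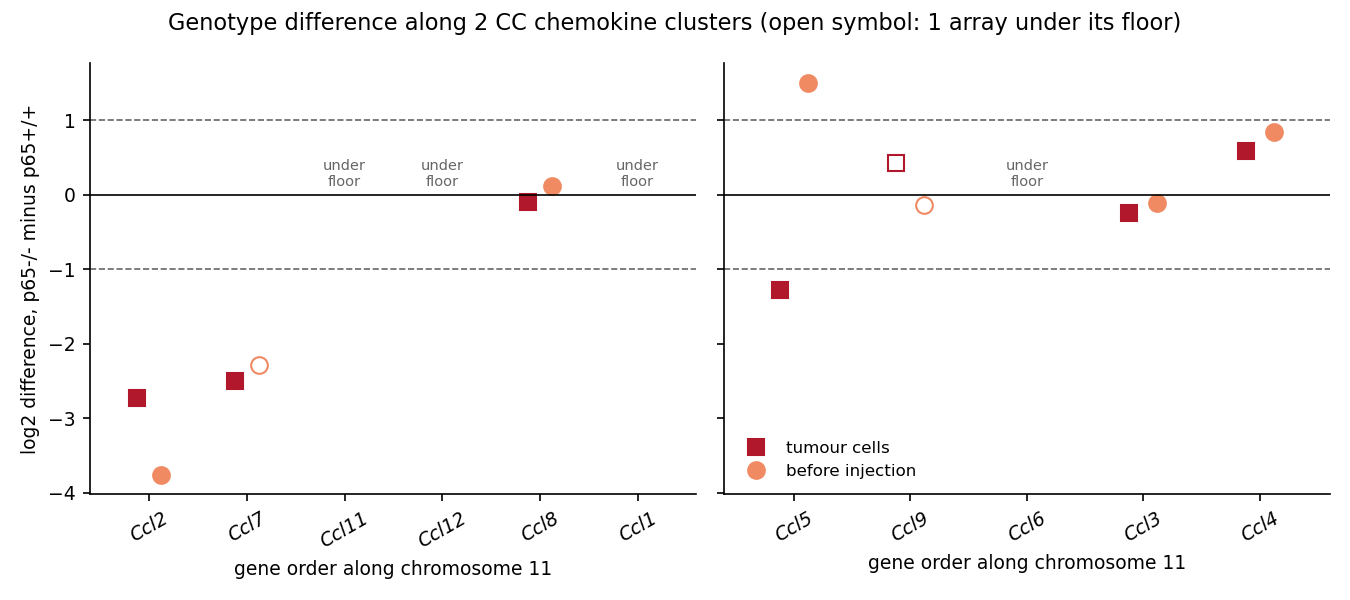
Log2 difference of signal, p65-/- minus p65+/+ (vertical axis), for genes in their order along chromosome 11 (horizontal axis), in tumour cells (squares) and before injection (circles), with dashed lines at 2-fold and open symbols where 1 array was under its floor. With signals under the floor set to it, only Ccl2, Ccl7 and Ccl5 pass 2-fold, and Ccl11, Ccl12, Ccl1 and Ccl6 are under the floor on all 4 arrays.

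Of 15 further CC chemokines listed, 12 had a probe set of their own, 5 of these were under the floor on all arrays, and 7 were compared in each comparison. With signals under the floor replaced by it, none reached 2-fold in any of the 4 comparisons, where Ccl9 and others with an array under the floor have only a lower bound. Their medians lay between -0.06 and 0.07 on the log2 scale. Of 14 receptors for CC chemokines, 13 had a probe set, 8 were under the floor on all arrays, and 4 or 5 were compared. None reached 2-fold with the same replacement. Ccr2, the receptor of Ccl2 and Ccl7, was between 95.6 and 109 by its brightest probe set, just above the floors, and its other 3 probe sets were under the floor on all arrays.

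Genes that carry inflammatory signals to chemokine promoters were described next. Of 24 listed, 22 were compared between genotypes, and 4 were lower in p65-/- cells in both comparisons, namely Il1r1, Il1rap, Cebpb and Cebpd, with 0 higher. Before injection that share is close to the 17.8% of all genes that were lower, and in tumour cells 5.47% of all genes were lower. The list median was -0.12 before injection and -0.21 in tumour cells, beside -0.02 and 0.01 over all genes. Il1rap, the co-receptor for interleukin-1, had 86.1 and 70.6 in p65-/- tumour and pre-injection cells, against 759 and 606 in p65+/+ tumour and pre-injection cells, at least 8.19-fold and at least 6.91-fold lower. The interleukin-1 receptor gene Il1r1 had 340 and 143 in p65-/- tumour and pre-injection cells, against 683 and 501 in p65+/+ tumour and pre-injection cells. It was 2.01-fold lower in tumour cells, at the edge of the threshold, and 3.50-fold lower before injection. Cebpd, a transcription factor gene induced in inflammation, had 968 and 252 in p65-/- tumour and pre-injection cells, against 3848 and 2526 in p65+/+ tumour and pre-injection cells. Its order of arrays was that of Ccl2, and like Ccl2 it was more than 2-fold higher in p65-/- tumour than in p65-/- pre-injection cells, at 3.84-fold. Cebpb, a related factor, was 3.56-fold lower in tumour cells and 3.37-fold lower before injection. Tnf, a ligand that activates NF-kB, was between 93.3 and 111 on the 4 arrays, close to the floors.

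Among NF-kB subunits and inhibitors, 9 of 10 listed had a probe set. In p65-/- cells 4 of 7 were lower in tumour cells and 5 of 8 before injection, with 0 higher in both, where 5.47% and 17.8% of all genes were lower. The list median was -1.28 in tumour cells and -1.32 before injection, beside 0.01 and -0.02 over all genes. Rela, the deleted gene, counts among them, and Nfkbia, an inhibitor induced by NF-kB, was 2.47-fold lower in tumour cells and 3.15-fold lower before injection. The others were Nfkbie in both comparisons, Relb in tumour cells, and Bcl3 and Nfkbiz before injection. Nfkbiz, an inducible member of the inhibitor family, was 2.57-fold higher in p65-/- tumour than in p65-/- pre-injection cells, at 603 against 235. Of 6 proteases known to trim chemokines, Mmp3 was at least 18.7-fold lower in p65-/- tumour cells and 10.7-fold lower before injection. Mmp13 was at least 5.82-fold lower before injection, and no other protease of the list reached 2-fold in any comparison with signals under the floor replaced by it. Mmp3 and Mmp13 were also lower in p65+/+ tumour than in p65+/+ pre-injection cells, by 3.75-fold and at least 5.52-fold, and Mmp3 was at least 6.60-fold lower in p65-/- tumour than in p65-/- pre-injection cells.

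Signal patterns most like those of the 3 variable chemokines were looked for among 3452 other genes that spanned 2-fold or more, by the root mean square difference of centred log2 levels over the 4 arrays, with signals under the floor set to it. Nearest to Ccl2 were Dram1 at 0.20, the prostaglandin synthase gene Ptgs2 at 0.26 and the Ras GTPase-activating protein gene Rasa1 at 0.26. Ccl7 was at 0.53, place 39 in the order from Ccl2, while Ccl2 was at place 211 in the order from Ccl7. Nearest to Ccl7 were the cyclin gene Ccne2 at 0.09, the kinase gene Lrrk2 at 0.11 and the calcium channel subunit gene Cacna2d1 at 0.14. Nearest to Ccl5 were the oxygen sensor gene Egln3 at 0.13, the sulphotransferase gene Chst15 at 0.16 and the potassium channel gene Kcna2 at 0.18. Egln3 had 308 and 834 in p65-/- tumour and pre-injection cells, against 611 and 302 in p65+/+ tumour and pre-injection cells. The likeness rests on 4 values per gene, and on fewer measured ones for Ccl7, Ccne2, Cacna2d1, Dram1, Chst15 and Kcna2, which had at least 1 array under its floor. Ccl7 had 73.8 and Ccne2 34.1 in p65-/- pre-injection cells, both set to the floor of 87.8, so their distance of 0.09 and their rank hold for the replaced values only.

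Cultures from tumours can hold host cells, which also make chemokines. Of 12 macrophage markers, 8 were under the floor on all arrays, among them Adgre1, Ptprc, Itgam and Cd68, and the summed signal was 1288 in p65-/- tumour and 1242 in p65-/- pre-injection cells, against 1594 in p65+/+ tumour and 1564 in p65+/+ pre-injection cells. Tyrobp, an adaptor of myeloid cells, had 278 in p65-/- tumour cells and was under the floor in the other samples, with 63.7 in p65-/- pre-injection cells. Csf1r was above the floor on all 4 arrays, at 243 and 236 in p65-/- tumour and pre-injection cells, against 198 and 200 in p65+/+ tumour and pre-injection cells. Fcgr1 was above the floor in p65-/- cells only, at 115 and 108 in tumour and pre-injection cells, against 74.1 and 82.4 in p65+/+ tumour and pre-injection cells. Cd14, a co-receptor for bacterial lipopolysaccharide, had 220 and 330 in p65-/- tumour and pre-injection cells, against 809 and 743 in p65+/+ tumour and pre-injection cells. The lower summed signal of the macrophage list in p65-/- cells rested on Cd14, and without it the sum was higher in p65-/- than in p65+/+ cells. The part of cells expressing Tyrobp, Csf1r, Fcgr1 or Cd14 in the Ccl2 and Ccl5 values was not tested. No granulocyte, lymphocyte, endothelial or epithelial marker was 2-fold apart in any comparison once signals under the floor were replaced by it. For markers with 1 array under its floor this is a bound only. The epithelial marker Krt18 had 127 in p65-/- tumour cells, against 30.7 in p65-/- pre-injection and 35.9 in p65+/+ tumour cells, both under the floor. It was at least 1.44-fold and at least 1.37-fold higher there, bounds that leave 2-fold possible. Within the fibroblast list, the surface marker Thy1 had 409 and 88.6 in p65-/- tumour and pre-injection cells, against 993 and 1126 in p65+/+ tumour and pre-injection cells. The growth factor receptor gene Pdgfra had 415 and 455 in p65-/- tumour and pre-injection cells, against 1662 and 1557 in p65+/+ tumour and pre-injection cells. The collagen gene Col1a1 had 5962 and 2409 in p65-/- tumour and pre-injection cells, against 2046 and 2734 in p65+/+ tumour and pre-injection cells, and so was 2.91-fold higher in p65-/- cells after tumour growth. The fibronectin gene Fn1 was 2.37-fold higher and the collagen gene Col3a1 2.05-fold lower in p65-/- tumour than in p65+/+ tumour cells. Thy1 and Pdgfra were lower on both p65-/- arrays, and Thy1 was 4.61-fold and Col1a1 2.48-fold higher in p65-/- tumour than in p65-/- pre-injection cells. The summed signal of the fibroblast list was 48776 in p65-/- tumour and 42521 in p65-/- pre-injection cells, against 40948 in p65+/+ tumour and 44259 in p65+/+ pre-injection cells. The part of a different make-up of the fibroblast lines in the chemokine values was not tested. Fewer cells of a type and less RNA per cell cannot be told apart in these samples.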

How the data were processed

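RNA of 4 samples was hybridised to Affymetrix arrays from 6 ug of total RNA, per the labels' protocols. The main values were the deposited signal intensity of each probe set, and the sources used here do not state how the authors summarised and scaled it. The authors' deposited table of ratios was treated as a score, a signed quotient of log2 levels, and used as an alternative where both arrays were above the floor. The log2 difference it implies is the distance of the quotient from 1 times the lower log2 level of the signals. Scanner files were not used. Log2 levels were taken with values below 1 raised to 1, in Python 3.11.15 and pandas 2.3.3. The fold counts were tested on simulated data with changes planted only in genes bright on all 4 arrays, a set that holds none of the 6 chemokines. That test does not cover calls near the floor. Probe sets were named by the platform annotation of 2016, updated through RefSeq gene identifiers. There were 34945 with 1 gene, 932 with several and 9160 with none. A gene took its probe set with the highest mean log2 signal, those ending in _s_at or _x_at only where no other existed.

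All 6 chemokines are named. Of each list, up to 6 genes with the largest difference of at least 2-fold were to be named, and for each chemokine spanning 2-fold, the 3 genes of most similar pattern. Genes named beyond that include Tnf, Ccl4, Ccl9, Ccl12, Ccr2, Csf1r, Fcgr1, Krt18, Cd3e, Gzmb, Mpo, Fap and markers under the floor. They were chosen after their values were seen. The members and lists were chosen with earlier results of these data known. The alternatives were quantile normalization, scaling to the 75th percentile, centring on the median, a floor at the 70th percentile, the mean of all probe sets and the authors' deposited table.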

Additional observations from a re-analysis of the deposited data

Results flagged for a closer look

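The tumour change of Ccl5 ran in opposite directions in the genotypes, 2.71-fold lower in p65-/- tumour than p65-/- pre-injection cells and 2.54-fold higher in p65+/+ tumour than p65+/+ pre-injection cells. The difference of the log2 changes was -2.78. With the floor at the 70th percentile neither change was past 2-fold, at -0.64 in p65-/- cells and 0.42 in p65+/+ cells, and the difference was -1.06. With 1 array per group this difference was not tested. The p65-/- change and the difference rest on the p65-/- pre-injection array, which stood apart from the others. No second value without that array exists for them.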

How the results depend on the processing

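No paired analysis was possible because the labels give no replicate numbers shared by the groups and each comparison sets 1 array against 1. An additive fit of genotype and state over the 4 arrays was not run. Of 140 log2 differences of the 5 genes recomputed under an alternative, 119 moved by less than the spread of probe sets of the same gene, 21 moved by more, and 0 of those past 2-fold in the main setting changed sign. The 25 under the mean of all probe sets could not move, since each gene had 1 probe set. Centring and scaling shift every gene of a comparison by 1 common amount, so the 25 values under each could move only together. Much of the 119 was therefore fixed in advance. Log2 differences given here for the authors' deposited table are those its quotients imply, with levels taken from the signals. Ccl20, under 2-fold in the signals, changed sign in them, to -2.48 against 0.38 for the genotype difference before injection and to 1.59 against -0.36 for the p65-/- tumour change. Those that moved were 7 with the floor at the 70th percentile, 11 in the authors' deposited table and 3 with p65-/- tumour cells standing in for p65-/- pre-injection cells, an alternative chosen after seeing the data. The genotype difference of Ccl2 ranged from -4.12 to -2.40 before injection and from -2.87 to -2.63 in tumour cells. With the floor at the 70th percentile the counts past 2-fold that rest on Ccl5 became 0, namely those higher in p65-/- cells before injection, lower in p65-/- tumour than pre-injection cells and higher in p65+/+ tumour than pre-injection cells, by construction, since the lower Ccl5 signals are then under the floor. The first of these was also 0 with that stand-in. In the authors' deposited table the counts higher in tumour than pre-injection cells became 2 in p65-/- cells and 2 in p65+/+ cells, as Ccl20 was added to them. There the count lower in p65-/- tumour than p65+/+ tumour cells was 4 with Ccl20, against 3, and it was 2 with the floor at the 70th percentile. The 2 lower before injection in that table were Ccl2 and Ccl20, since Ccl7 had an array under its floor. The number of genes whose tumour change differed 2-fold or more between genotypes was 2, and 1 after quantile normalization, 1 after scaling to the 75th percentile and 1 after centring on the median, as Ccl2 dropped under the threshold. The signals of Ccl8 and Ccl20 and the lower signals of Ccl5 and Ccl7 lie near or under the array median, which limits what can be said of them.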
